A study of Mus musculus with 9 samples.

Results

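The genes for the subunits, activators and assembly factors of the proteasome were examined in CD8+ T cells sorted from mouse tumors. Members were the protein-coding genes whose mouse symbol begins with Psma, Psmb, Psmc, Psmd, Psme, Psmf or Psmg followed by a digit, which gave 51 of the 32976 genes in the deposited tables. They were grouped into 16 constitutive core genes (Psma and Psmb), 3 immunoproteasome genes (Psmb8, Psmb9 and Psmb10), 26 regulator genes (Psmc, Psmd, Psme and Psmf1) and 4 assembly genes (Psmg). The symbol rule also took in 2 genes outside these classes: Psmc3ip, a meiotic recombination factor, and Psme3ip1, a protein that binds the activator encoded by Psme3. Classes follow the symbol, so Psmd5, a chaperone of cap assembly, stands among the regulators. The cells came from wildtype mice bearing CT26 tumors, a BALB/c colorectal carcinoma line, and every animal had received PD-1 antibodies (clone RMP1-14) on days 3, 6 and 9 after implantation. Cells binding a tetramer of the tumor peptide GSW11 were sorted into 3 groups of 3 libraries: high avidity cells from progressing tumors (TetHighProg, replicates 1, 2 and 5), low avidity cells from regressing tumors (TetLowReg, replicates 6, 7 and 8) and, again from progressing tumors, low avidity cells (TetLowProg, replicates 9, 10 and 12). No untreated group is analysed here. The labels do not say whether each library was made from its own animal, so the p-values below measure only the spread between libraries. By the study's account the high and low avidity cells of progressing tumors were taken from one set of tumors, so TetHighProg and TetLowProg libraries may share animals; the labels do not say which, and the tests treated all libraries as independent.

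The proteasome degrades proteins that carry ubiquitin and so controls protein turnover and supplies peptides for presentation on MHC class I. Its core is a barrel of stacked rings: the outer rings are built from alpha subunits (Psma genes) and the inner rings from beta subunits (Psmb genes), a few of which carry the proteolytic sites. Caps at the ends of the barrel admit substrates; one kind is made of ATPases (Psmc genes) and non-ATPase subunits (Psmd genes), and others are made of Psme proteins. Lymphocytes and cells exposed to interferon gamma replace the catalytic subunits of Psmb5, Psmb6 and Psmb7 with those of Psmb8, Psmb9 and Psmb10, which turns the core into the immunoproteasome.

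One pair of members is nearly identical in coding sequence, and its counts are given side by side here. Psme2 (chr14:55824895-55829173, minus strand, GRCm39) encodes a subunit of the interferon-induced activator, and Psme2b (chr11:48836181-48837017, minus strand) is a near copy of it. Their coding sequences are 717 bases each and differ at 5 positions, an identity of 99.3%. Of the 643 windows of 75 bases along the coding sequence, 75 being the cycles of the sequencing kit, 382 hold no difference. The stretch with most differences, coding bases 454 to 543 counted from the start codon and read on the coding strand, is printed here with the 3 differing bases in capitals.
Psme2: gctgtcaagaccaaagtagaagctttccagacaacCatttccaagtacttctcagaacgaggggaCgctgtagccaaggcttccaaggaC
Psme2b: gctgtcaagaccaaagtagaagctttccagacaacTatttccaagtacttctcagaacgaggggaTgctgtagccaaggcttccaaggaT
Counts of the copy followed those of Psme2. Psme2 had 52854, 68577 and 5055 counts in TetHighProg, 0, 10513 and 1731 in TetLowReg and 15499, 0 and 4266 in TetLowProg. Psme2b had 1836, 2647 and 472 counts in TetHighProg, 0, 369 and 85 in TetLowReg and 1087, 0 and 472 in TetLowProg. Both were at 0 in the same 2 libraries, and Psme2b took 3.36% to 9.96% of the counts of the pair in the other 7. Whether any of its counts came from Psme2 transcripts was not tested. Reads that map to several places are not among the gene counts, and how many the pair lost in this way was not tested.

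The promoters were searched for motifs of the factors best known for switching these genes. NRF1, the product of Nfe2l1, raises proteasome genes when proteolysis is blocked and binds elements of the form TGACNNNGC. Interferon-stimulated response elements were searched as GAAANNGAAA. Both strands were read from 250 bases before to 50 bases after each canonical transcript start (GRCm39). The NRF1 form was present at 8 of 51 members (15.7%), beside 12.6% of 20726 protein-coding genes. The interferon form was present at 7 members (13.7%), beside 3.76% of protein-coding genes, and at none of the 3 immunoproteasome genes. The last 80 bases before the starts of Psmb5 and Psmb6 are shown because these genes encode catalytic subunits that the immunoproteasome replaces and both windows hold the NRF1 form, marked in capitals. Psmb5 lies at chr14:54855482-54855561 on the minus strand and Psmb6 at chr11:70416103-70416182 on the plus strand.
Psmb5: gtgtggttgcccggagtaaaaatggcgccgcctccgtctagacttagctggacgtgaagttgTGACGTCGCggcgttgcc
Psmb6: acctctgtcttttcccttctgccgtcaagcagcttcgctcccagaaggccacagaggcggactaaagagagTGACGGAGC

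The libraries held 16405306 to 36429515 counts assigned to genes, and 599 to 8071 genes reached 10 counts, the level at which a gene is called found here. The libraries fell apart in this respect within every group: 4 of 9 (TetHighProg 1 and 2, TetLowReg 6 and TetLowProg 10) had fewer than 2000 genes found, from 599 to 1298, with totals of 22040786 to 33409472 counts. The other 5 had 3181 to 8071. Of 11 cytotoxic T cell markers, 3 to 11 were found per library, the lowest being TetHighProg 2, where Cd8b1 had 78155 counts and Trac, Cd3d and Cd8a were at 0. Levels are given as CPM, the counts scaled to a total of 1000000 per library. B cell markers were at 581, 691 and 1217 CPM in TetLowReg 7, TetLowReg 8 and TetLowProg 12 and below 1 CPM in the other 6. Macrophage and dendritic cell markers summed to 8425 CPM in TetLowReg 7, 1543 in TetHighProg 1 and 1268 in TetLowReg 8, mostly from Lyz2, and to at most 621 in the other 6. In TetLowReg 7, 5 of the 12 were found, Lyz2, Cd68 (6085 counts), Zbtb46 (964), Adgre1 (214) and Itgam (132), while C1qa was at 0 and Csf1r had 9 counts. Tumor and stroma markers reached 372 CPM in TetHighProg 1, all of it from Col1a2 (12437 counts). Krt8, Krt18, Epcam, Col1a1 and Sparc were at 0 in that library. Mitochondrially encoded genes held 44.5% of counts in TetLowReg 7 and 14.2% in TetLowReg 8, beside 1.36% to 6.07% in the other 7, and are part of the totals behind every CPM unless stated. In bulk samples such as these, fewer cells of a type and less RNA per cell cannot be told apart.

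The proteasome genes were found in full in no library, and most were found in the same few libraries. TetHighProg had 13, 8 and 24 of 51 members found in replicates 1, 2 and 5. TetLowReg had 5, 39 and 35 in replicates 6, 7 and 8. TetLowProg had 46, 4 and 42 in replicates 9, 10 and 12. The 4 libraries with few genes in all were the 4 lowest, at 4 to 13 members, so each group held both a low and a high library and the groups overlapped. The members were nevertheless found more often than genes at large in each library: 7.84% to 90.2% of members were found per library, beside 1.82% to 24.5% of the 32976 genes.

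**Figure D1:**
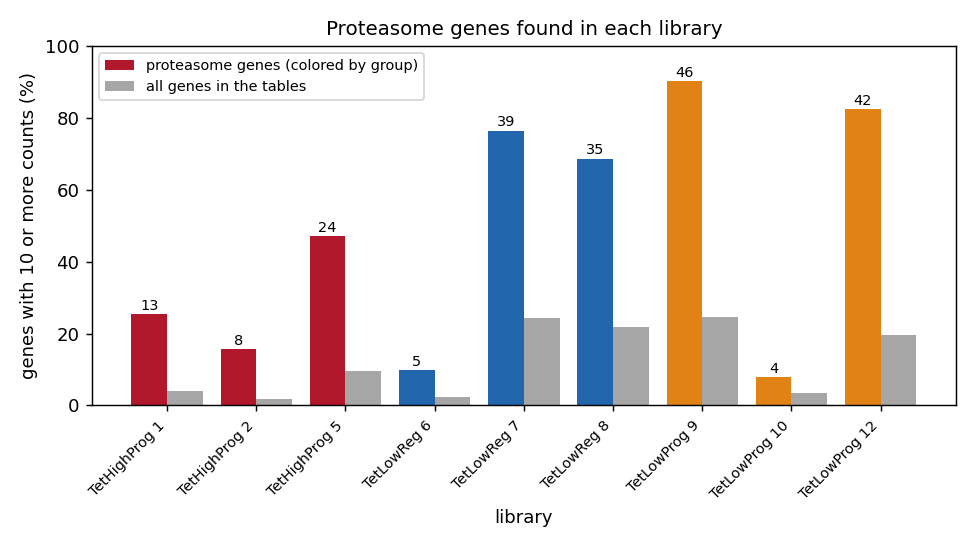
Percent of genes with 10 or more counts in each library (vertical axis), for the 51 proteasome genes (colored bars: red TetHighProg, blue TetLowReg, orange TetLowProg; the number found is printed above) and for all 32976 genes (grey bars). TetHighProg 1 and 2, TetLowReg 6 and TetLowProg 10 hold 4 to 13 members and the other 5 libraries 24 to 46.

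On average 15.0 ± 8.19 members were found in TetHighProg, 26.3 ± 18.6 in TetLowReg and 30.7 ± 23.2 in TetLowProg (SD, n = 3 each). TetLowReg exceeded TetHighProg by 11.3 members and TetLowProg exceeded it by 15.7, differences below the SD between libraries pooled over the groups compared (14.4 and 17.4). TetLowProg exceeded TetLowReg by 4.33 members against an SD of 21.0, and this last difference turned negative without TetLowReg 6 (-6.33), TetLowProg 9 (-3.33) or TetLowProg 12 (-1.33) and rose to 17.7, 10.7 and 8.67 without TetLowProg 10, TetLowReg 7 and TetLowReg 8. Leaving out TetLowReg 6 raised the excess of TetLowReg over TetHighProg to 22.0, and leaving out TetLowReg 7, TetLowReg 8 or TetHighProg 2 lowered it to 5.0, 7.0 or 7.83. Leaving out TetLowProg 10 raised the excess of TetLowProg over TetHighProg to 29.0, and leaving out TetLowProg 9 or 12 lowered it to 8.0 or 10. Among the 5 libraries with more genes found, the only TetHighProg library had 24 members and the 4 low avidity libraries had 35 to 46, with no spread to be had for TetHighProg. TetLowProg 9, the library with most members, had 0 counts for every B cell marker, while the next 3 held B cell markers; the part of those cells in the member counts was not tested.

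Within a library a member was mostly either absent or abundant. Of the 459 pairs of a member and a library, 218 (47.5%) were at 0 and 166 (36.2%) had 1000 or more counts, while only 25 (5.45%) had 1 to 9 counts and 17 (3.7%) had 10 to 99. A 0 allows up to 3 counts, which is 0.0824 to 0.183 CPM depending on the library; this covers counting error only, since the reads carry no molecular identifiers. Of the 51 members, 2 were found in all 9 libraries, 1 in 8 and 4 in none. In TetLowProg 10, 8 members had exactly 1 count each, 5 of which (Psmb2, Psmc2, Psmd5, Psmb8 and Psmd4) had 66338 to 135291 counts in another library. Across the 9 libraries 10 members had 20000 or more counts at least once.

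**Figure D2:**
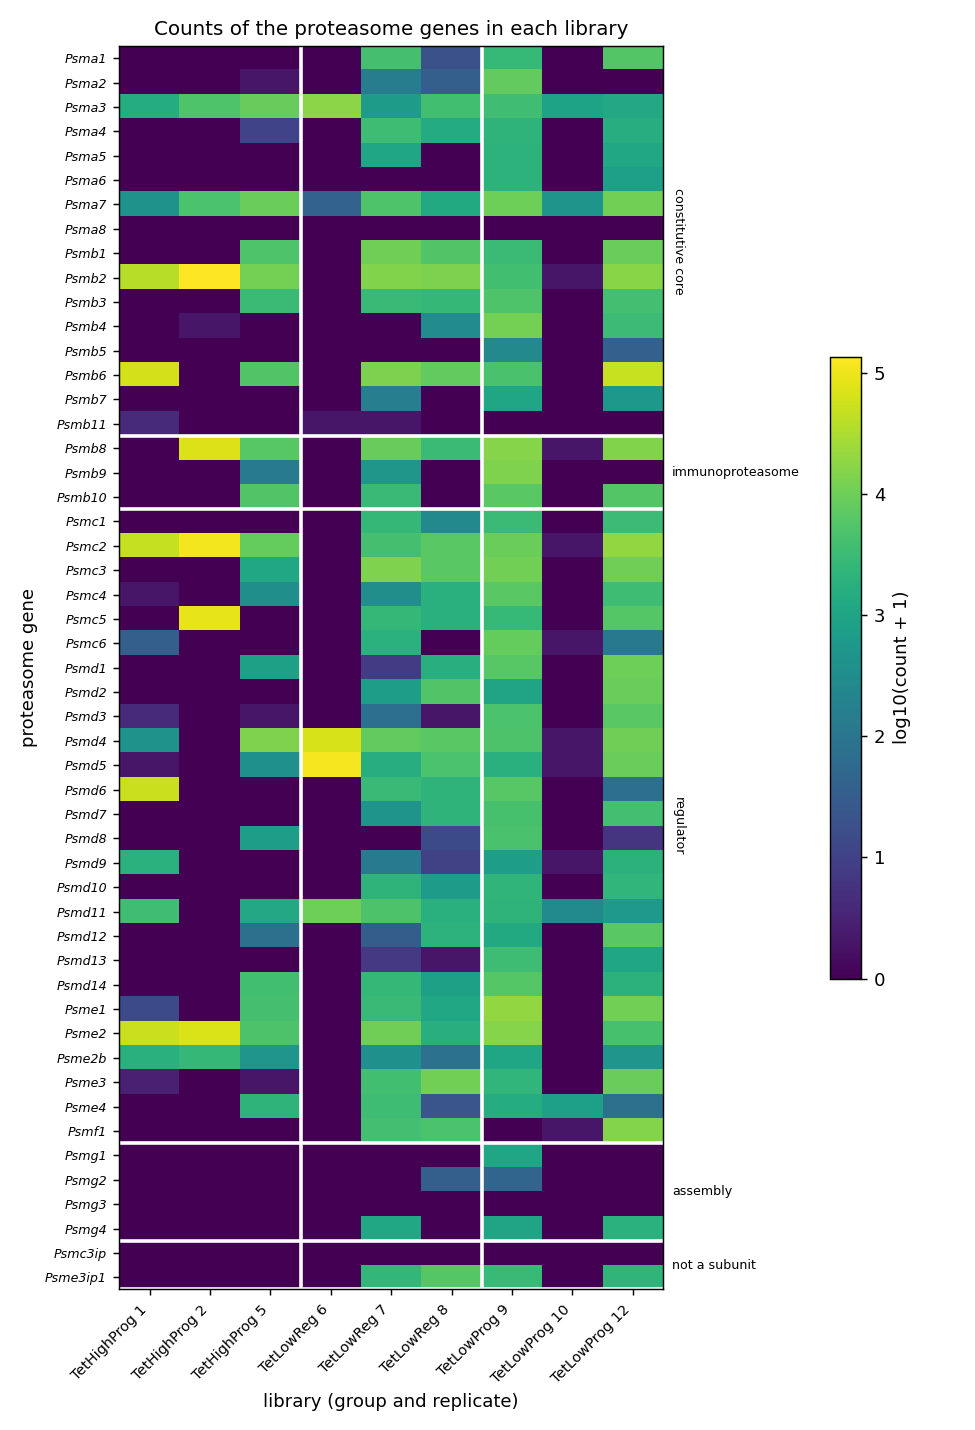
Counts of the 51 proteasome genes (rows, by class) in the 9 libraries (columns, by group), as log10(count + 1) on the color scale. Most cells of the plot are either at 0 or above 1000 counts, and Psma3 and Psma7 are the 2 genes with color in every column.

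Among the core genes, the alpha ring subunits Psma3 and Psma7 were the members found in every library. In the sentences that follow, the 3 values of a group are CPM in the order of the replicates named above. Psma3 was at 45.7, 208 and 385 in TetHighProg, 799, 18.9 and 229 in TetLowReg and 101, 37.5 and 39.2 in TetLowProg. Psma7 was at 12.3, 184 and 421 in TetHighProg, 1.81, 141 and 81.4 in TetLowReg and 270, 18.4 and 348 in TetLowProg. Both varied as widely within a group as between groups, and TetLowReg 6 held the highest Psma3 and the lowest Psma7. The annotation shares 3.44% of Psma3 exon with other genes, and of Psma7 3.09%. The alpha ring holds 7 different subunits, and these 2 were the only ones found in TetHighProg 1 and 2, TetLowReg 6 and TetLowProg 10. All 7 were found in TetLowProg 9 and 6, 5 and 6 in TetLowReg 7, TetLowReg 8 and TetLowProg 12. Psma6 was found in TetLowProg 9 and 12 alone, at 56.3 and 24.6.

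Psmb2, a beta subunit without a proteolytic site, had the highest mean CPM of the core genes. It was at 1122, 5342 and 506 in TetHighProg, 0, 398 and 817 in TetLowReg and 104, 0.0398 and 526 in TetLowProg, where 0.0398 is 1 count. The highest TetHighProg library lay far above all others, but the groups overlapped. Of the 7 constitutive beta subunits, TetLowProg 9 and 12 had all 7 found, TetLowReg 7 and 8 had 5 each, TetHighProg 5 had 4, TetHighProg 1 and 2 had 2 and 1, and TetLowReg 6 and TetLowProg 10 had 0. The tissue-restricted core genes were silent or nearly so: Psma8, the alpha subunit of the testis, was at 0 in all 9 libraries, and Psmb11, the beta subunit of the thymic cortex, had at most 3 counts.

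The catalytic subunits each had a pattern of their own over the libraries. Psmb6, the constitutive caspase-like subunit, was at 1864, 0 and 238 in TetHighProg, 0, 355 and 481 in TetLowReg and 127, 0 and 1617 in TetLowProg. Psmb7, the constitutive trypsin-like subunit, was at 0 in TetHighProg, at 0, 4.23 and 0 in TetLowReg and at 28.04, 0 and 17.2 in TetLowProg. Psmb5, the constitutive chymotrypsin-like subunit, was at 0 in 7 libraries and had 263 counts (7.24 CPM) in TetLowProg 9 and 36 counts (1.14 CPM) in TetLowProg 12. Per kilobase of canonical transcript, Psmb6, Psmb7 and Psmb5 were at 123, 24.2 and 4.25 CPM in TetLowProg 9 and at 1561, 14.8 and 0.672 in TetLowProg 12, the 2 libraries with all 3. Nek6 shares 46.8% of Psmb7 exon in the annotation, and the counts do not use strand, so Psmb7 values are uncertain.

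Of their replacements in the immunoproteasome, Psmb8 and Psmb10 were found in more libraries than the subunits they replace (6 against 2 and 4 against 3) and Psmb9 in fewer (3 against 6). Psmb8, which takes the place of Psmb5, was at 0, 2841 and 279 in TetHighProg, 0, 239 and 188 in TetLowReg and 439, 0.0398 and 461 in TetLowProg. Psmb10, which takes the place of Psmb7, was at 0, 0 and 240 in TetHighProg, 0, 79.1 and 0 in TetLowReg and 182, 0 and 179 in TetLowProg. Psmb9, which takes the place of Psmb6, was at 0, 0 and 5.38 in TetHighProg, 0, 14.1 and 0 in TetLowReg and 387, 0 and 0 in TetLowProg. Psmb8 lay between 188 and 461 in all 5 libraries with more genes found and Psmb10 was at 0 in only 1 of these, whereas Psmb9 was high in a single library. Psmb8 (chr17:34416690-34420428) and Psmb9 (chr17:34400960-34406738) lie beside each other in the MHC region, where Psmb9 shares 19.6% of its exon with Tap1. In 6 of 6 libraries with Psmb8 found, its count exceeded that of Psmb5, whose canonical transcript is of like length (1702 and 1701 bases).

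**Figure D3:**
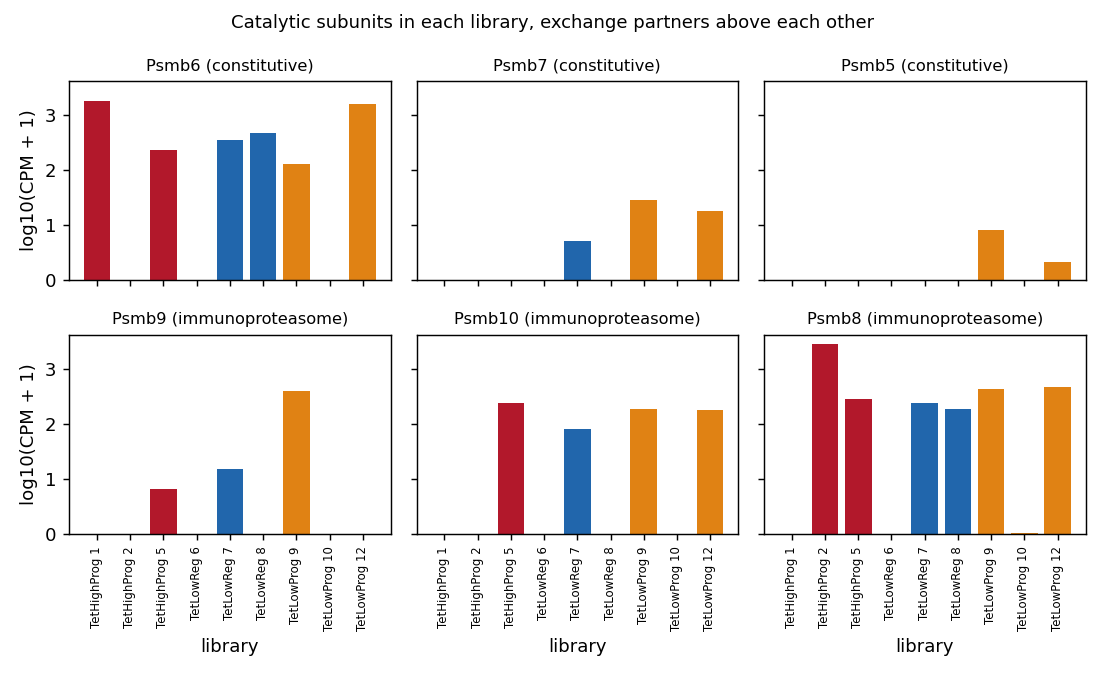
Level of each catalytic subunit as log10(CPM + 1) in the 9 libraries (red TetHighProg, blue TetLowReg, orange TetLowProg), with each constitutive subunit above its immunoproteasome counterpart. Psmb6 and Psmb8 are found in 6 libraries each, Psmb5 in 2.

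As a share of the counts of the 6 catalytic genes, the immunoproteasome genes ranged over the whole scale. TetHighProg gave 0% (95% exact Clopper-Pearson interval up to 0.00592%), 100% (from 99.99%) and 68.8% (68.1% to 69.5%). TetLowReg gave no share in replicate 6, which had no count for any of the 6 genes, and 48.1% (47.5% to 48.7%) and 28.1% (27.3% to 29.0%) in replicates 7 and 8. TetLowProg gave 86.1% (85.8% to 86.4%), 100% and 28.1% (27.8% to 28.5%), of which the value for replicate 10 rests on 1 count and has an interval from 2.5% to 100%. These intervals cover counting error only, since amplified reads are not independent molecules. The 2 extreme TetHighProg shares each rest on a single gene, Psmb6 in replicate 1 and Psmb8 in replicate 2. The means were 56.3% ± 51.2 (SD, n = 3) in TetHighProg, 38.1% ± 14.1 (n = 2) in TetLowReg and 71.4% ± 38.1 (n = 3) in TetLowProg. TetLowReg minus TetHighProg was -18.2 percentage points. Without TetHighProg 1, 2 or 5 it was -46.3, 3.69 or -11.9 points, and without TetLowReg 7 or 8 it was -28.1 or -8.19. TetLowProg minus TetHighProg was 15.1 points. Without TetHighProg 1 or 2 it was -13.0 or 37.0 points, and without TetLowProg 9, 10 or 12 it was 7.79, 0.841 or 36.8. TetLowProg minus TetLowReg was 33.3 points, 19.01 without TetLowProg 10 and 54.9 without TetLowProg 12. The libraries of the groups overlapped in each comparison, and all 3 differences moved by more than 1.5 times with a single library left out.

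In the regulatory caps, the ATPases were found nearly in full in the libraries with many genes and sparsely elsewhere. All 6 were found in TetLowReg 7, TetLowProg 9 and TetLowProg 12, 5 in TetLowReg 8, 3 in TetHighProg 5, 2 each in TetHighProg 1 and 2, and 0 in TetLowReg 6 and TetLowProg 10. Psmc2, with the highest mean CPM of them, was at 1416, 4328 and 363 in TetHighProg, 0, 114 and 396 in TetLowReg and 265, 0.0398 and 625 in TetLowProg. Psmc5 reached 3374 in TetHighProg 2 and was at 0 in the other 2 TetHighProg libraries. Smarcd2 shares 39.5% of Psmc5 exon. Psmc1, by contrast, was at 0 in all TetHighProg libraries and in TetLowReg 6 and TetLowProg 10, and at 15.8 to 106 in the other 4.

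The Psmd genes were uneven over the libraries. Psmd4, a receptor for ubiquitin chains, was at 12.9, 0 and 601 in TetHighProg, 3010, 218 and 392 in TetLowReg and 136, 0.0398 and 324 in TetLowProg. Psmd5, a chaperone of cap assembly, was at 0.0299, 0 and 16.7 in TetHighProg, 5153, 43.2 and 289 in TetLowReg and 50.4, 0.0398 and 307 in TetLowProg. Psmd11, a scaffold subunit found in 8 of 9 libraries, was at 106, 0 and 56.2 in TetHighProg, 459, 135 and 111 in TetLowReg and 59.1, 11.5 and 18.5 in TetLowProg. Every TetLowReg library lay above every TetHighProg library for Psmd5 and Psmd11, and above every TetLowProg library for Psmd11. TetLowReg 6 had just 5 members found, Psma3, Psma7, Psmd4, Psmd5 and Psmd11. Its Psmd5 count of 113578 was the second highest of any member in any library. Of the 14 numbered Psmd genes, 14, 13, 11 and 11 were found in TetLowProg 9, TetLowProg 12, TetLowReg 7 and TetLowReg 8, and 0 to 7 in the other 5.

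Among the other activators, Psme1, the partner of Psme2, was at 0.389, 0 and 180 in TetHighProg, 0, 80.4 and 69.2 in TetLowReg and 560, 0 and 344 in TetLowProg. In CPM, Psme2 was at 1582, 2708 and 223 in TetHighProg, 0, 289 and 106 in TetLowReg and 427, 0 and 135 in TetLowProg. The partners, which lie beside each other on chromosome 14, thus parted in TetHighProg 1 and 2, where Psme2 had 52854 and 68577 counts and Psme1 had 13 and 0. Emc9 shares 39.6% of Psme1 exon and Rnf31 30.8% of Psme2 exon. Psme3, the nuclear activator, was at 0.0599, 0 and 0.0441 in TetHighProg, 0, 105 and 666 in TetLowReg and 67.0, 0 and 282 in TetLowProg. It was found in none of the TetHighProg libraries and in both richer libraries of each low avidity group. Its binding protein Psme3ip1 showed the same libraries: 0 in TetHighProg, 0, 67.3 and 371 in TetLowReg and 77.3, 0 and 71.2 in TetLowProg. Psme4 was 1 of 4 members found in TetLowProg 10, at 30.7.

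Psmf1 encodes an inhibitor that binds the core. It was at 0 in all TetHighProg libraries, at 0, 111 and 286 in TetLowReg and at 0, 0.0398 and 472 in TetLowProg. It was thus high in 3 libraries and at 0 in TetLowProg 9, where 46 other members were found.

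The Psmg assembly factors had the lowest summed CPM of the 4 proteasome classes where they were found, from 2.13 to 60.4. Psmg1 was found in TetLowProg 9 alone, at 29.1. Psmg2, its partner in alpha ring assembly, had 35 counts (2.13 CPM) in TetLowReg 8 and 47 counts (1.29 CPM) in TetLowProg 9. Psmg3 was at 0 in all 9 libraries. Its partner Psmg4 was at 30.8 in TetLowReg 7, 27.8 in TetLowProg 9 and 60.4 in TetLowProg 12 and at 0 in the other 6. No Psmg gene had a count in any TetHighProg library, TetLowReg 6 or TetLowProg 10. Psmc3ip was also at 0 in all libraries.

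Per kilobase of canonical transcript, the highest member was Psmb6 in 4 libraries (1799 CPM per kilobase in TetHighProg 1, 342 in TetLowReg 7, 464 in TetLowReg 8 and 1561 in TetLowProg 12). Psme2 led in TetHighProg 2 (2806) and TetLowProg 9 (442). Psmd4 led in TetHighProg 5 (451) and TetLowReg 6 (2260), and Psma7 led in TetLowProg 10 (19.5). On this scale no member led in all libraries of a group.

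Summed over the 51 members, the level did not follow the number of members found. TetHighProg had sums of 7834, 19090 and 4306 CPM, TetLowReg of 9423, 3975 and 6656 CPM and TetLowProg of 6431, 98.4 and 8775 CPM. The library with 8 members found thus had the highest sum and the one with 46 members a middling one. In the low libraries a few members made up the sum: the top 3 members held 63.9%, 68.3%, 95.1% and 88.0% of member counts in TetHighProg 1, TetHighProg 2, TetLowReg 6 and TetLowProg 10, and 22.2% to 35.5% in the other 5. Psmd5 alone held 54.7% in TetLowReg 6. Regulators held 43.1% to 61.1% of member counts in 8 libraries and 91.5% in TetLowReg 6, and the immunoproteasome genes held 0% to 15.7%.

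**Figure D4:**
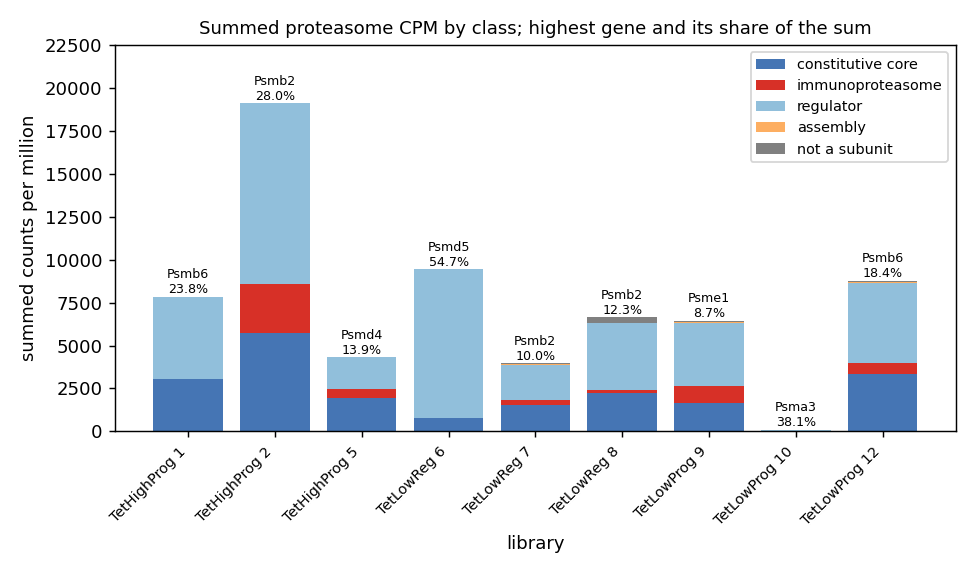
Summed CPM of the proteasome genes in each library, stacked by class, with the highest gene and its share of the member counts printed above each bar. TetHighProg 2, with 8 members found, has the tallest bar at 19090 CPM, and TetLowProg 10 the shortest at 98.4 CPM.

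Mean sums were 10410 ± 7721 CPM for TetHighProg, 6685 ± 2724 CPM for TetLowReg and 5102 ± 4489 CPM for TetLowProg (SD, n = 3 each). The differences of -3725 (TetLowReg minus TetHighProg), -5308 (TetLowProg minus TetHighProg) and -1583 CPM (TetLowProg minus TetLowReg) were below the pooled SD of 5790, 6315 and 3713. Single libraries moved them in both directions. The first became 615 without TetHighProg 2, -2370 without TetLowReg 7 and -6777 without TetHighProg 5. The second became -968 without TetHighProg 2, -2807 without TetLowProg 10 and -8360 without TetHighProg 5. The third became 918 without TetLowProg 10, -214 without TetLowReg 6, -2938 without TetLowReg 7 and -3420 without TetLowProg 12. With TMM effective library sizes the differences were -7143, -10466 and -3323. Without the highest member of each library the second was -3444 and the third -199, and with mitochondrially encoded genes left out of the total the 3 were -2593, -5419 and -2826. Among the 5 libraries with more genes found they were 1010, 3297 and 2287, the opposite direction. The highest sums were those of TetHighProg 2 and TetLowReg 6, with 599 and 766 genes found, and the lowest that of TetLowProg 10, with 1148. The part of the genes found in these differences was not tested.

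The richer libraries of one group were not always closer to each other than to those of another group. TetLowReg 7 and 8 shared 31 members found and differed in these by a median of 1.96-fold in CPM. TetLowProg 9 and 12 shared 41 and differed by a median of 2.38-fold. Between groups, TetLowReg 8 and TetLowProg 12 shared 32 and differed by a median of 1.78-fold. The other 3 pairs across the low avidity groups differed by medians of 2.27, 2.48 and 3.37-fold. TetHighProg 5 differed by medians of 2.32 and 2.76-fold from TetLowReg 7 and 8 and of 2.86 and 2.25-fold from TetLowProg 9 and 12. For all genes found in both libraries the medians were 3.07-fold within TetLowReg, 3.62-fold within TetLowProg and 2.91 to 4.49-fold between the groups. Single members differed far more: Psmd12 by 142-fold between TetLowReg 7 and 8 and Psmd6 by 75.7-fold between TetLowProg 9 and 12.

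Differences between groups were tested with edgeR's quasi-likelihood test over all genes that passed a filter on low counts, 5813 in all. Calls needed a log2 fold change beyond 2 in size and, after Benjamini-Hochberg adjustment, a p under 0.05. The SE given with an edgeR log2 fold change was not fitted. It is the size of the log2 fold change divided by the square root of the test's F statistic. Of the 51 members, 42 passed the filter. The 9 that did not were Psma6, Psma8, Psmb5, Psmb11, Psmc3ip, Psmd13, Psmg1, Psmg2 and Psmg3. DESeq2, used as an alternative below, applied its own filter, so the members it tested are not all among these 42. Its calls for TetLowProg against TetHighProg include Psma6, Psmb5 and Psmd13. TetHighProg is the reference of both comparisons below that include it, so these share its libraries.

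Against TetHighProg, TetLowReg gave 0 of 42 members called by edgeR, beside 0% of all genes tested. At an unadjusted p under 0.05 there were 9 members, all higher in TetLowReg, or 21.4% of those tested beside 19.5% of all genes. The 9 became 0 to 4 when any one of TetHighProg 1, 2 or 5, TetLowReg 7 or 8 or TetLowProg 9 or 12 was left out, beside 1.60% to 3.95% of all genes. Without TetLowReg 6 or TetLowProg 10 there were 11 of 46 members each time, beside 28.4% and 24.4% of all genes. Without the filter on low counts there were 9 of 48 members, beside 4.38% of all genes. With edgeR on the 2 groups alone it was 1 of 23 members beside 2.69% of all genes, and the members' median log2 fold change was 0.57. limma-voom, run with weights for library quality here and below, called 18 members of 42 (42.9%) beside 41.5% of all genes, and DESeq2 called 12 of 37 (32.4%) beside 34.8%. With its poscounts size factors DESeq2 called 11 of 30 (36.7%) beside 27.3%, and on the 2 groups alone 8 of 23 (34.8%) beside 34.1%. All of these members were higher in TetLowReg. The median log2 fold change of the 42 members was 2.56 and that of all genes tested 3.52. It was 0.27 without TetLowReg 7, 1.63 without TetLowReg 8 and 7.17 without TetHighProg 5, where all genes gave 1.52, 2.23 and 5.80. By class in the fit of all libraries it was 3.67 for 12 core genes, 2.72 for 25 regulators and -0.54 for the 3 immunoproteasome genes. The groups did not overlap for 3 of 42 members (Psmd5 and Psmd11 higher, Psme2b lower in TetLowReg), or 7.14%, beside 5.8% of all genes.

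By unadjusted p the leading members were Psmf1, Psme3ip1 and Psmd2, a scaffold subunit of the cap base. Psmf1 had a log2 fold change of 11.26 (SE 4.93, adjusted p = 0.233 with edgeR). Psme3ip1 had 11.33 (SE 5.19, adjusted p = 0.233), and Psmd2 had 10.94 (SE 5.04, adjusted p = 0.233). Psmd2 was at 0 in TetHighProg, at 0, 20.9 and 328 in TetLowReg and at 27.2, 0 and 284 in TetLowProg. All 3 were at 0 in every TetHighProg library, so the fitted values depend on the prior count. Counts were also summed over each group, with 3 counts over the group as the floor. The TetLowReg sum was then at least 3159-fold higher for Psmf1, 3097-fold for Psme3ip1 and 2227-fold for Psmd2. These limits cover counting error in the sums only, not the spread between libraries. In each case TetLowReg 6 was at 0 too. TetLowReg 8 gave 5381 of the 6144 Psmd2 counts. Without it the log2 fold change was 8.07 for Psmd2, 9.75 for Psme3ip1 and 10.46 for Psmf1. All 3 passed the threshold with limma-voom (adjusted p from 0.00306 to 0.00595) and with DESeq2 (adjusted p from 6.27e-10 to 0.00178). The DESeq2 log2 fold changes were 26.7 for Psmf1, 14.1 for Psme3ip1 and 26.3 for Psmd2. With TetHighProg at 0 the counts set no upper limit to them. The immunoproteasome genes had log2 fold changes of -3.00 (Psmb8, SE 3.00, adjusted p = 0.563), 2.39 (Psmb9, SE 4.43, adjusted p = 0.831) and -0.54 (Psmb10, SE 4.25, adjusted p = 0.973) in the same edgeR fit. For Psmb8 the value rested on TetHighProg 2, without which it was 0.88. Psmb9 was at -4.47 without TetLowReg 7, and Psmb10 ranged from -9.89 to 9.32 as single libraries were left out.

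TetLowProg against TetHighProg gave a like result. edgeR called 0 of 42 members beside 0% of all genes, and 10 members (23.8%) had an unadjusted p under 0.05, all higher in TetLowProg, beside 25.4% of all genes. The 10 became 0 to 4 when any one of the same 7 libraries was left out, beside 1.95% to 3.91% of all genes. Without TetLowReg 6 or TetLowProg 10 there were 15 and 13 of 46 members, beside 31.6% and 31.5% of all genes. Without the filter on low counts there were 8 of 48 members, beside 4.92% of all genes. With edgeR on the 2 groups alone it was 0 of 26 members beside 4.71% of all genes, and the members' median log2 fold change was 0.48. limma-voom called 25 of 42 (59.5%) beside 49.9% of all genes, and DESeq2 called 16 of 37 (43.2%) beside 42.9%, all higher in TetLowProg. With poscounts size factors DESeq2 called 13 of 30 (43.3%) beside 24.9% of all genes, 9 higher and 4 lower, and on the 2 groups alone 15 of 37 (40.5%) beside 45.8%, all higher. The median log2 fold change was 3.64 for the members and 4.27 for all genes tested. It was 1.47 without TetLowProg 9 and 8.62 without TetHighProg 5, where all genes gave 1.73 and 6.85. By class in the fit of all libraries it was 4.04 for the core genes, 3.5 for the regulators and 0.53 for the immunoproteasome genes. The groups did not overlap for any member (0 of 42), beside 7.17% of all genes.

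The leading members were Psmf1 with a log2 fold change of 11.05 (SE 4.87), Psmd2 with 10.41 (SE 4.89) and Psmb7 with 7.33 (SE 3.56), each with an adjusted p of 0.193 in edgeR. All 3 were at 0 in every TetHighProg library. The TetLowProg sum of counts was at least 4339-fold higher for Psmf1, 2902-fold for Psmd2 and 456-fold for Psmb7. These limits too cover counting error in the sums only, not the spread between libraries. Nearly all the Psmf1 counts came from TetLowProg 12, with 14865 of the 14866, and without that library its log2 fold change was 0.33. TetLowProg 12 also gave 8954 of the 9942 Psmd2 counts, and without it Psmd2 was at 7.25. With limma-voom the adjusted p was 0.0322 for Psmf1, 0.00162 for Psmd2 and 0.0158 for Psmb7. With DESeq2 and its default size factors it was 1.79e-10, 2.91e-10 and 5.08e-09, and all were past the threshold. Here too DESeq2 gave very large log2 fold changes (27.0, 26.5 and 24.2), to which the counts set no upper limit. With poscounts size factors Psmb7 was not called (log2 fold change 7.06, adjusted p = 0.143), and on the 2 groups alone DESeq2 gave Psmf1 no adjusted p. Of the immunoproteasome genes, Psmb8 had a log2 fold change of -2.82 (SE 2.98, adjusted p = 0.597), Psmb9 5.70 (SE 5.22, adjusted p = 0.507) and Psmb10 0.53 (SE 4.25, adjusted p = 0.972). limma-voom called Psmb10 higher in TetLowProg (log2 fold change 10.58, adjusted p = 0.00498), whereas DESeq2 gave 1.46 (adjusted p = 0.923). Psmb8 was at 1.0 without TetHighProg 2, Psmb9 at -4.32 without TetLowProg 9, and Psmb10 at -0.10 and -0.11 without TetHighProg 1 and 2.

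In both comparisons 10 of the 42 tested members (23.8%) were at 0 in all TetHighProg libraries, beside 34.3% of all genes tested. These members passed the filter through the low avidity libraries, so they could only be higher there. With such genes at the bound set by the floor, the medians were unchanged for the members and 3.62 and 4.56 for all genes. Of all 51 members, 18 were at 0 in the 3 TetHighProg libraries, 6 in those of TetLowReg and 4 in those of TetLowProg. TetHighProg held 2 of the 4 libraries with fewer than 2000 genes found, and the like shares of all 32976 genes were not computed. B cell markers were found in 3 of the 6 low avidity libraries and in none of TetHighProg, and their part in these differences was not tested.

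Between the low avidity groups no member was called. edgeR gave 0 of 42 beside 0% of all genes, and 0 members had an unadjusted p under 0.05, beside 0.929% of all genes. limma-voom called 0 of 42 beside 0%, with 2 members under an unadjusted p of 0.05 beside 6.09% of all genes. DESeq2 called 0 of 35 beside 1.88%, with 2 members under an unadjusted p of 0.05 beside 12% of all genes. The median log2 fold change (TetLowProg minus TetLowReg) was 0.16 for the members and 0.35 for all genes tested, and the members' value ranged from -0.44 without TetLowReg 6 to 1.41 without TetLowReg 7. The groups did not overlap for 1 of 42 members, Psmd11, or 2.38%, beside 3.42% of all genes.

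The leading members were Psmd8 with a log2 fold change of 6.11 (SE 4.93), Psmd5 with -3.87 (SE 3.27) and Psmd3 with 6.23 (SE 5.35), each with an adjusted p of 1.0 in edgeR. Psmd8, a lid subunit, was at 0, 0 and 0.792 in TetLowReg and 124, 0 and 0.159 in TetLowProg, so its value rested on TetLowProg 9 and was -1.17 without it. Psmd5 was at -0.92 without TetLowReg 6, at -6.26 without TetLowProg 12 and at -0.21 in the 5 libraries with more genes found. Psmd3, also of the lid, was at 0, 2.0 and 0.061 in TetLowReg and 131, 0 and 207 in TetLowProg, and its log2 fold change was 10.02 without TetLowReg 7. For Psmb8, Psmb9 and Psmb10 the log2 fold changes were 0.18 (SE 2.78), 3.31 (SE 4.69) and 1.07 (SE 4.29), with adjusted p of 1.0 in each edgeR test. Psmb9 was at -6.73 without TetLowProg 9 and 10.58 without TetLowReg 7, Psmb10 at 10.62 without TetLowReg 7, and Psmb8 at -0.46 and -0.19 without TetLowReg 6 and TetLowProg 12.

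**Figure D5:**
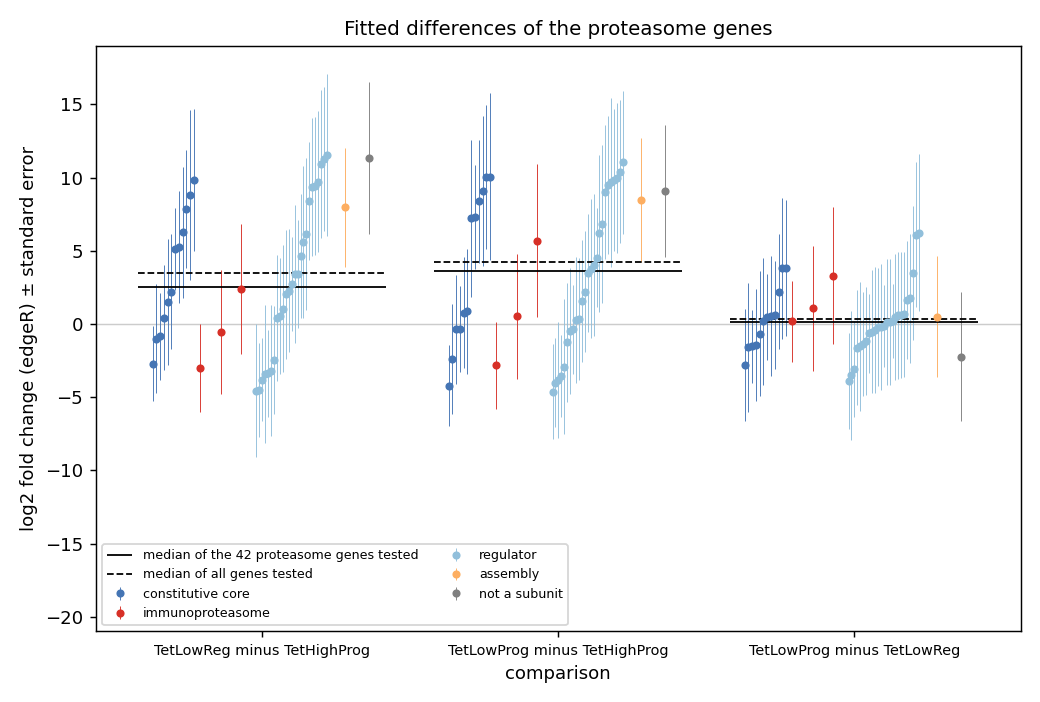
Fitted log2 fold change of each of the 42 tested proteasome genes in the 3 comparisons, colored by class. Bars are 1 SE, derived as the size of the log2 fold change divided by the square root of the F statistic. The solid line is their median and the dashed line the median of all 5813 genes tested. In this edgeR fit the members' medians of 2.56, 3.64 and 0.16 lie below those of all genes at 3.52, 4.27 and 0.35, an order that limma-voom turned in the first 2 comparisons (6.79 against 6.34 and 9.74 against 7.14).

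Genes that work with the proteasome were counted in the same way. Of 18 listed partners, 17 had a match, among them Pomp, the maturation factor of the core, Adrm1, a ubiquitin receptor, and Nfe2l1. They were found in 4, 3 and 6 cases in TetHighProg, 0, 13 and 13 in TetLowReg and 17, 3 and 13 in TetLowProg, so the same 4 libraries were low. None of the 12 partners tested was called by edgeR, and 2, 3 and 0 were higher at an unadjusted p under 0.05 in the comparisons as ordered above, beside 19.5%, 25.4% and 0.929% of all genes in either direction. Their median log2 fold changes were 2.89, 1.88 and 0.66. Pomp had 10907, 60207 and 2306 counts in TetHighProg, 0, 2328 and 1006 in TetLowReg and 5667, 0 and 730 in TetLowProg.

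Of the 6 genes for ubiquitin and its activation, 2, 1 and 4 were found in TetHighProg, 1, 6 and 5 in TetLowReg and 5, 3 and 6 in TetLowProg. Ubb, a polyubiquitin gene, was the exception to the pattern of the list, with 39946 to 705244 counts in every library. None of the 6 was called by edgeR, 1, 1 and 0 were higher at an unadjusted p under 0.05 (beside the same shares of all genes), and the medians were 1.22, 1.23 and 0.16. Of the 8 genes of the interferon response and peptide loading, 3, 1 and 6 were found in TetHighProg, 4, 8 and 6 in TetLowReg and 8, 2 and 6 in TetLowProg. B2m was found in all 9 libraries, also where Psmb8, Psmb9 and Psmb10 were at 0, as in TetHighProg 1 and TetLowReg 6. None of the 7 tested was called by edgeR, beside 0% of all genes, or had an unadjusted p under 0.05, beside 19.5%, 25.4% and 0.929% of all genes, and the medians were -0.12, 2.72 and 0.80.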

How the data were processed

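Bulk RNA was made into Smart-seq2 libraries with 22 cycles of preamplification. Reads were aligned by the authors to GRCm39 with STAR 2.7.6a; the methods also name featureCounts, but the deposited files are laid out as STAR's gene counts, and their unstranded count column was used as deposited (50.2% to 50.8% of stranded counts fell on one strand). Names came from GENCODE M39, which matched 28645 of 32976 gene IDs. The 4 summary lines were left out of totals; multimapping reads were 7.51% to 14.5% of the total. Tests used edgeR 4.0.16 (3 groups in one model, default expression filter, TMM, prior count 2; R 4.3.3), with limma 3.58.1 and DESeq2 1.42.0 as alternatives; the scripts were tested on simulated data. The planned permutation tests of numbers summed over members are not reported, since the members were chosen with earlier results of these data known, as were all gene lists. A further gene of the interferon response and peptide loading is not reported here. Named were the catalytic, Psmg, tissue-restricted and non-subunit genes, Psme1, Psme2 and Psme3, the 4 highest of each class, the members found in most libraries or leading a library per kilobase, and the 3 with the smallest p per comparison. Psma6, Psmc1, Psmc5, Psmd6, Psmd12, Psme2b and Psme4 were named after their values were seen.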

Additional observations from a re-analysis of the deposited data

How the results depend on the processing

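Members found, summed CPM, the immunoproteasome share, members called and the log2 fold changes of leading and immunoproteasome members were recomputed under alternative processing and under 1 choice made after seeing the data, the 5 libraries with more genes found, where the lone TetHighProg library is assumed to vary like the others. Members called stayed at 0 under every edgeR setting and with each library left out (0 to 0), and rose only with limma-voom, which also weighted the libraries by quality, and DESeq2. TetLowReg against TetHighProg gave 18 with limma-voom, 12 with DESeq2, 11 with its poscounts size factors and 8 on 2 groups, or 42.9%, 32.4%, 36.7% and 34.8% of members tested beside 41.5%, 34.8%, 27.3% and 34.1% of all genes. TetLowProg against TetHighProg gave 25, 16, 13 and 15, or 59.5%, 43.2%, 43.3% and 40.5% beside 49.9%, 42.9%, 24.9% and 45.8%. The members' median log2 fold change, below that of all genes in the main tests, lay above it in the 3 comparisons without the expression filter (2.08 against 1.31, 3.75 against 0.18 and 0.27 against -0.34). It also did so without TetHighProg 5 in the first 2 (7.17 against 5.80 and 8.62 against 6.85) and with poscounts in the last 2 (7.30 against 4.98 and -0.36 against -0.76), and in 1 or 2 comparisons each with limma-voom, edgeR on 2 groups, TetLowProg 9 or 10 left out and the 5 libraries. Summed CPM in the 5 libraries was 3297 for TetLowProg minus TetHighProg and 2287 for TetLowProg minus TetLowReg. With Psmb8 and Psmb5 alone, the differences in immunoproteasome share of -18.2 (TetLowReg minus TetHighProg), 15.1 (TetLowProg minus TetHighProg) and 33.3 points (TetLowProg minus TetLowReg) became 0.0, -0.624 and -0.624, and in the 5 libraries -30.7, -11.7 and 19.01. Signs reversed in log2 fold change for the genes below, none past the threshold where reversed; ranges are over single libraries left out. TetLowReg minus TetHighProg: Psmb8 -3.71 to 0.88 (reversed without TetHighProg 2), 2.95 with limma-voom and 0.39 in the 5 libraries, Psmb9 -4.47 to 6.85 (without TetLowReg 7), Psmb10 -9.89 to 9.32 (without TetHighProg 5, TetLowReg 6 or 8) and 3.94 with limma-voom. TetLowProg minus TetHighProg: Psmb8 -3.58 to 1.0 (without TetHighProg 2), 3.63 with limma-voom and 0.64 in the 5 libraries, Psmb9 -4.32 to 9.97 (without TetLowProg 9), Psmb10 -0.11 to 10.34 (without TetHighProg 1 or 2), -0.99 with poscounts and -0.47 in the 5 libraries. TetLowProg minus TetLowReg: Psmd8 -1.17 to 8.96 and Psmb9 -6.73 to 10.58 (both without TetLowProg 9), Psmb9 -0.93 with limma-voom, Psmb8 -0.46 to 1.47 (without TetLowReg 6 or TetLowProg 12) and -0.50 with poscounts. Psmb10 in this comparison was 0.43 to 10.62 (highest without TetLowReg 7) and 6.64 with limma-voom. The strict filter, with 10 members left, gave medians of -0.22, -0.98 and -1.08 beside 0.63, 1.05 and 0.64 for all genes. The cause was not tested. Library size in place of TMM moved the median log2 fold change of all genes from 3.52, 4.27 and 0.35 to 3.05, 4.56 and 1.23. No paired analysis was possible because the groups share no replicate number, although TetHighProg and TetLowProg may share tumors. A 0 allows up to 3 counts, and amplification without molecular identifiers leaves the number of molecules behind a count unknown.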
